A study of Mus musculus with 24 samples.

Results

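The regions described here carried H3K9ac peaks in spheroids of the knockout groups and none in scramble spheroids. Peaks of 12 lists on chromosomes 1 to 19 and X were merged wherever they overlapped by 1 bp or more, which gave 38586 regions. A region was a member if none of the 3 scramble libraries called it and at least 6 of the 9 other libraries did, and 345 regions (0.894%) met this rule. The members were therefore chosen by the measured peak calls themselves, so their absence in scramble is how they were found and is no result. A region without a call is one where the authors' caller listed no peak, not one without acetylation.

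H3K9ac was profiled by ChIPmentation, a chromatin immunoprecipitation in which the Tn5 transposase tags the precipitated chromatin, in 4T1 spheroids collected after 5 days. The 4T1 line derives from a mammary carcinoma of the mouse and grows as 3D spheroids in this study. The study asked whether H3K9ac depends on CPT1a, which brings long-chain fatty acids into mitochondria, and on the acetyltransferase KAT2a. There were 3 libraries in each of 4 groups. Scramble (SCR) cells carried a guide against EGFP that targets no mouse gene, CPT1a knockout and KAT2a knockout cells carried guides against Cpt1a or Kat2a, and these 3 groups were grown with 75 µM palmitate. The fourth group was CPT1a knockout cells with 5 mM acetate, whose labels do not name palmitate, although the paper describes its acetate comparison of H3K9ac as made in palmitate medium. Per the study's methods, all lines expressed Cas9 under doxycycline and were selected as puromycin-resistant populations, with guides to different exons of a gene. The labels do not give the guide of a library or say that replicates were separate cultures, so all spreads below are between libraries and may be technical.

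H3K9ac is an acetyl group on lysine 9 of histone H3, set by KAT2a and related enzymes from acetyl-CoA and found at active promoters and enhancers. Many mammalian promoters lie in CpG islands, which are rich in G, C and the dinucleotide CG. Processed pseudogenes are copies of spliced transcripts that were reverse transcribed and inserted elsewhere, and reads from such a copy can be hard to tell from reads of the parent gene.

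Reference sequence from 4 members shows how the composition of these regions varied. The windows lie on the peak summit, are read from GRCm38 (the mm10 build of the lists), lie outside every annotated exon and have CG dinucleotides in capitals. The first pair comes from promoters, with 29 CG in 245 bases at Arhgap33 (chr7:30534681-30534925, minus strand) and 38 in 300 bases at Celsr2 (chr3:108415601-108415900, minus strand). The second pair holds fewer, with 15 in a Gng7 intron (chr10:80985874-80986173, plus strand) and 8 in an intergenic region whose nearest gene is Cdkn2aipnl (chr11:51916229-51916528, plus strand).
Arhgap33: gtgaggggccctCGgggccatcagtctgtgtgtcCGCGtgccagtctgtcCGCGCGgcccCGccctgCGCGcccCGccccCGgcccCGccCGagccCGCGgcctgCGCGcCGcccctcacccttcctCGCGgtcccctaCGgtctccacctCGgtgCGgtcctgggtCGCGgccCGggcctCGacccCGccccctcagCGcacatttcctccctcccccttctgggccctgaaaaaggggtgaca
Celsr2: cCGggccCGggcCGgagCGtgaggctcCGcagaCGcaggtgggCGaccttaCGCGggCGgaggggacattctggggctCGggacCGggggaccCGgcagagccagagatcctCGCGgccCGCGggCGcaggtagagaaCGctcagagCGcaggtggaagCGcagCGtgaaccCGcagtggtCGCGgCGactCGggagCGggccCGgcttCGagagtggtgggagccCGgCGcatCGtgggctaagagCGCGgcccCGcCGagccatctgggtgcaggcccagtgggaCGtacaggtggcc
Gng7 intron: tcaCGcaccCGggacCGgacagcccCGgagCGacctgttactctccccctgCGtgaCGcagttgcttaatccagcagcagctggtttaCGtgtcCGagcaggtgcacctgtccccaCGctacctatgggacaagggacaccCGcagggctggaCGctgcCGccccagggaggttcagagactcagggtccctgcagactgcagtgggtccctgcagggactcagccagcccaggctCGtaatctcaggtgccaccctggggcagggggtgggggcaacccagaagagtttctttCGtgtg
Near Cdkn2aipnl: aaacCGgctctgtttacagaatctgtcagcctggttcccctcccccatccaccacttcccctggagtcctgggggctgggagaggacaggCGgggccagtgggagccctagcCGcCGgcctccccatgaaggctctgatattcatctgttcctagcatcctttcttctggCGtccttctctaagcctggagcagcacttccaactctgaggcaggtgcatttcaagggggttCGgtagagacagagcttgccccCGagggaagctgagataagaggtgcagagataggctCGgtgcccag

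A second set shows members that repeat sequence of another gene. Each pair below gives 12 bases in lower case before the point where the match starts and the first 18 matched bases in capitals, read in the direction of the parent gene. The pairs are Tpm3-rs7 (chr14:113314597-113314626, plus strand) with Tpm3 (chr3:90079653-90079682, plus strand), Cbfa2t2-ps1 (chr5:60231366-60231395, plus strand) with Cbfa2t2 (chr2:154436487-154436516, plus strand), and Ndufb4c (chr15:73809916-73809945, minus strand) with Ndufb4 (chr16:37654379-37654408, minus strand). In all 3 pairs the 18 capital bases were identical.
Tpm3-rs7: agtcaagaagagGAAAAGCGGCTACAACGC
Tpm3: cggaagtagggtGAAAAGCGGCTACAACGC
Cbfa2t2-ps1: agttcaaggacaGCTGGTGCGGGCGAGTTC
Cbfa2t2: ggcggcggcggcGCTGGTGCGGGCGAGTTC
Ndufb4c: tggctacttcagATATCCGCGCAGGCGCAG
Ndufb4: agggcagccctcATATCCGCGCAGGCGCAG

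The lists held 29153 to 34330 peaks in scramble and 16201 to 24594 in the other 9 libraries. The calling depth, which is the background coverage recovered from the peak values, was 1.87 to 2.52 in scramble and 0.554 to 1.909 in the others, with the lowest values in CPT1a knockout replicate 3 and in replicate 2 of the acetate group. Median GC content of the peaks was 46.5 to 48.4% in scramble and 51.0 to 54.9% in the others, so the groups compared by the rule also differed in the depth and composition of their lists. All 6 epithelial markers checked, Krt8, Krt18, Krt7, Epcam, Cdh1 and Cldn4, had a promoter peak in 12 of 12 libraries. Of 8 genes that mark other cells, Ptprc, Cd3e, Pecam1, Cdh5, Adgre1, Alb and Acta2 had none in any library, and the region over Sftpc also covers the start of Bmp1. Promoter peaks at Cpt1a and Kat2a were called in 12 of 12 libraries, which says nothing on the knockouts, since H3K9ac does not read the edited exons.

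The members were weaker and shorter than regions called in every library, but not than regions in general. Fold enrichment, the ratio of the coverage at a peak's summit to the local background of its own library, had a median of 5.41 over the members, against 5.10 over all regions and 22.1 over the 12098 regions called in all 12 libraries. The median of a member over its calling libraries ran from 2.95 to 9.44. Placed among all peaks of the same list, the members had a median rank percentile of 24.4 over their calling libraries, the highest such value was 48.1, although within single lists members reached up to 62.9, at Arhgap33 in CPT1a knockout replicate 2. Their median width was 718 bp, against 560 bp for all regions and 3155 bp for those called in all 12. The share of regions called in at least 6 of the 9 libraries that scramble did not call was 16.4% (101 of 617) below a fold enrichment of 5, 8.04% (207 of 2576) from 5 to 7 and 2.02% (37 of 1832) from 7 to 10, and none of 10722 stronger regions was a member.

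By position, 137 members (39.7%, 95% Wilson interval 34.7 to 44.96) lay within 1 kb of an annotated coding-gene transcription start site (TSS), 73 (21.2%) inside a gene and 135 (39.1%) outside genes. The share at promoters was 36.9% for all regions and 82.4% for regions called in all 12 libraries, and regions called in at least 2 scramble libraries and no other library, of which there were 2839, had 15.3%. When the 53 members with a near-identical copy elsewhere are set apart, 126 promoter members, 62 in genes and 104 outside genes remain. Promoter members touched 140 protein-coding genes, of which 30 also had another promoter region called in all 12 libraries and 85 had no other region at a start site. At those 85 genes the member was the promoter's sole region in any of the 12 lists.

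The 10 highest-ranked promoter members called in all 9 libraries lay at Arhgap33, Eif3j2, Inhbb, Camk2n1, Tpm3-rs7, Camk4, Akap17b, Cmpk2, Celsr2 and Sorcs2, and all 10 covered an annotated start site. Eif3j2 and Tpm3-rs7 have near-identical copies and are treated with the copies below. Arhgap33, which encodes a GTPase-activating protein, had the strongest member (chr7:30534068-30535281). Its fold enrichment was 12.9, 20.3 and 6.74 in CPT1a knockout, 7.63, 8.29 and 10.1 with acetate, and 9.44, 3.46 and 11.4 in KAT2a knockout. The fold enrichments of the 3 groups overlapped, and the lowest and the highest library differed widely.

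Inhbb (chr1:119421136-119422781) encodes the beta B subunit of inhibin and activin, ligands of the TGF-beta family. Its fold enrichment was 9.36, 9.41 and 6.86 in CPT1a knockout, 7.76, 8.00 and 9.11 with acetate, and 9.47, 10.1 and 11.4 in KAT2a knockout. The KAT2a knockout libraries were the highest, but by rank the groups overlapped, and the part of list depth in these fold enrichments was not tested. Camk2n1 (chr4:138453583-138455320), an inhibitor of the calcium- and calmodulin-dependent kinase CaMKII, had 13.4, 10.3 and 8.58 in CPT1a knockout, 7.80 to 10.2 with acetate and 5.71 to 9.19 in KAT2a knockout. Camk4 (chr18:32938522-32940533), a kinase of the same pathway, was the widest member at 2012 bp and ranged from 5.20 to 11.95 over the 9 libraries.

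Celsr2 (chr3:108415109-108416129), a cadherin of the planar cell polarity system, had a fold enrichment of 7.403, 9.37 and 5.55 in CPT1a knockout, 5.29, 4.76 and 6.64 with acetate, and 7.91, 10.2 and 8.50 in KAT2a knockout. Each KAT2a knockout library was above each acetate library. Sorcs2 (chr5:36397365-36398199), a sorting receptor with a VPS10 domain, ranged from 4.43 to 10.2. Cmpk2 (chr12:26468901-26470354), a mitochondrial nucleotide kinase induced by interferon, ranged from 4.82 to 12.5, and Akap17b (chrX:36644640-36645401), an anchor of protein kinase A, from 5.56 to 12.2. At Sorcs2 and Cmpk2 the fold enrichments of the 3 groups overlapped. At Akap17b each KAT2a knockout library (7.48, 8.44 and 12.2) was above each acetate library (7.33, 5.56 and 5.84), and CPT1a knockout overlapped both. By rank, CPT1a knockout lay above KAT2a knockout without overlap at Cmpk2, and above the acetate group at Akap17b. Tert (chr13:73626704-73627685), the catalytic subunit of telomerase, was not named by the rule and was chosen after its values were seen. It was called in 7 of 9 libraries with a median fold enrichment of 8.82 and a range of 4.28 to 11.0.

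**Figure D1:**
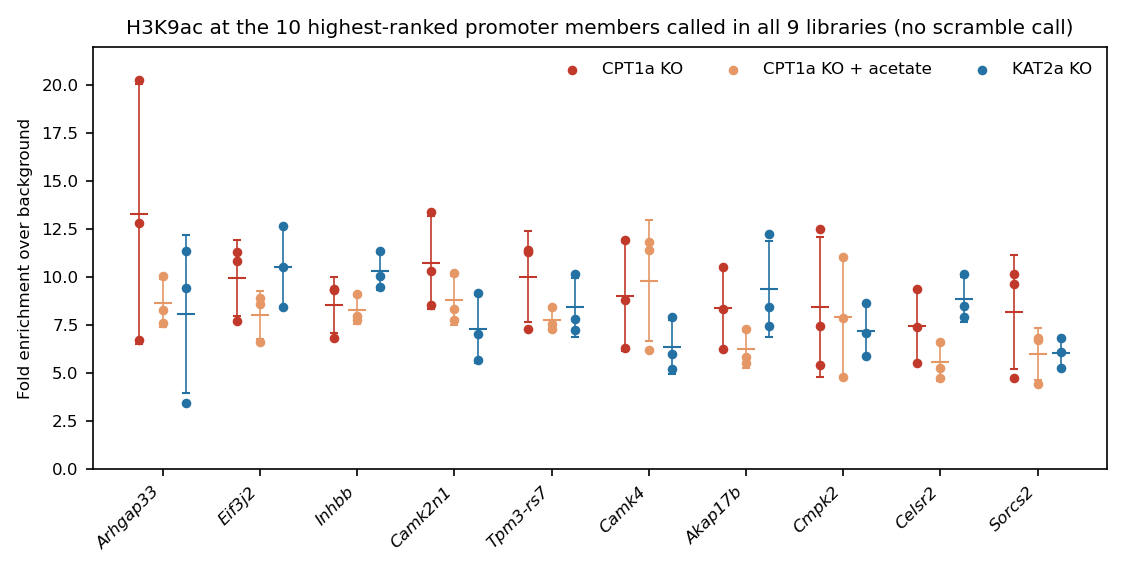
Fold enrichment over background (vertical axis, a ratio within each library) at the 10 highest-ranked promoter members called in all 9 libraries outside scramble. Points are libraries, horizontal ticks and bars are the mean and SD of 3 libraries. Values run from 3.46 to 20.3, both at Arhgap33, and the libraries of the groups overlap at most of the 10 promoters.

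Gene families were read at the promoter members, beside all protein-coding genes, of which 140 of 21728 (0.644%) had a member at a start site. Of 146 signalling ligands and receptors, 5 (3.42%) had one, namely Inhbb, Sema4g, Fgf15, Fzd9 and Efna2. Sema4g (chr19:44988744-44989936), a semaphorin, was called in 8 libraries at 5.76 to 8.80, and Fzd9 (chr5:135250646-135251631), a Wnt receptor, in 8 at 4.22 to 6.91. Fgf15 (chr7:144895309-144896157), a fibroblast growth factor, and Efna2 (chr10:80179185-80179703), an ephrin, were called in 6 libraries each, at 3.63 to 8.32 and 4.07 to 6.23. None of the 5 reached the median strength of regions called everywhere.

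Of 120 adhesion genes, 3 (2.5%) had a member, Celsr2 and the integrin subunits Itga7, called in 8 libraries with a median of 4.67, and Itga2b, called in 6 with a median of 5.06. Of 23 genes of the Camk and Prkc families, 2 (8.70%) had one, Camk4 and the kinase inhibitor Camk2n1, so 1 of these 2 is no kinase. Of 176 developmental transcription factors 2 (1.14%) had one, Sox13 (chr1:133423096-133424559, 7 libraries, median 6.78) and Tbx2 (chr11:85832199-85833612, 6 libraries, median 5.36). Of 190 ion channels and transmitter receptors 2 (1.05%) had one, Cacng7, an auxiliary calcium channel subunit (7 libraries, median 5.24), and Kcnj4, a potassium channel (7 libraries, median 3.75). These counts are small, and the lists were chosen with earlier results of these data known.

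For the remaining lists the counts were 0 or 1, too few to be told from the share of all coding genes. Of 140 ribosomal and proteasome genes 1 (0.714%) had one, Rpl27, at 4.18, and that gene had another promoter region as well. Of 435 zinc finger genes 1 (0.230%) had one, Zfp2, with a median of 6.03. Of 20 NF-kB genes (Rela, Nfkb1, Nfkbia, the Traf genes and others) and of 34 genes of fatty acid and acetyl-CoA metabolism, 0 had one. All 20 NF-kB genes and 23 of the 34 metabolic genes had a promoter region called in all 12 libraries.

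Members inside genes overlapped an exon in 22 cases and lay in introns alone in 40. Apart from a copy in Efcab8, 2 of them were called in all 9 libraries. The member in an intron of Gng7 (chr10:80985170-80986253), a G protein gamma subunit, had fold enrichments of 3.24 to 7.24 with a median of 5.59. The member in an intron of Nfic (chr10:81452136-81452966), a transcription factor of the nuclear factor I family, had 3.65 to 6.59 with a median of 4.71. Both were thus at or below the median of the promoter members, 5.65. The 104 members outside genes lay a median of 18871 bp from the nearest start site, with 35 within 10 kb and 23 beyond 50 kb. Those called in all 9 libraries, apart from a copy near Lyzl1, were nearest to Drd5 (chr5:38307585-38308286, median 6.18), Cdkn2aipnl (chr11:51915257-51916794, median 6.61), Malt1 (chr18:65489950-65490548, median 5.52) and Azin1 (chr15:38406221-38407034, median 5.19). The nearest gene is a label of place and not of a target.

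A total of 53 members (15.4%, interval 11.9 to 19.5) had another stretch of at least 100 bp and 90% identity elsewhere in the genome for the 300 bp around their summit. The share was 5.82% for all regions, 4.97% for regions called in all 12 libraries and 5.59% for regions called in at least 6 of 9 and in scramble. This search was added after the data were seen. Members with such a copy had a median width of 401 bp, and 37 of the 72 members under 500 bp had one. They were frequent among the highest-ranked members, with 5 of the first 10, 9 of the first 20 and 21 of the first 50.

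For 40 of the 53, the matching stretch lay in a region called in all 12 libraries, and at 36 of them that region was the promoter of a coding gene. Fold enrichment at the matching region had a median of 29.4, against 6.70 at the member, a direction that the choice of regions called in all 12 libraries nearly fixes. Among matches in other regions, those of the members near Fcho1 and Fcgr3 were weaker than the member, at 4.08 against 5.09 and 3.72 against 4.09. For 35 members the best local alignment to the coding promoter region had a median identity of 98.5% over a median of 218 bp. In 21 of these 35 the match started within 50 bp of an annotated TSS of the parent gene, and 17 of the 53 overlapped an annotated processed pseudogene. Reads from such a stretch can be placed at either copy, so peak calls there are uncertain and cannot be assigned to the member alone.

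Tpm3-rs7 (chr14:113314498-113314877) matched Tpm3, an actin-binding tropomyosin, at 98.5% identity, and its fold enrichment was 7.28 to 11.4 in CPT1a knockout, 7.33 to 8.43 with acetate and 7.27 to 10.2 in KAT2a knockout, against a median of 36.7 at Tpm3. Eif3j2 (chr18:43477472-43477818) matched Eif3j1, which encodes a subunit of translation initiation factor eIF3, with a median of 8.92 against 29.4. The pseudogene Gm10254 (chr3:54811081-54811456) matched the splicing factor Tra2b at 98.9%, with 9.24 against 34.1. Ndufb4c (chr15:73809599-73810020) and a member inside Dock8 (chr19:25033039-25033446) both matched Ndufb4, a subunit of respiratory complex I, at 100% identity, with 8.71 and 8.44 against 32.3. In each of these 5 pairs the parent was more than 3 times as enriched as the member. Other parents were Ruvbl1, Ptp4a1, Pgam1, Chtop, Got2, Wtap, Srp9, Rps6, Ak4 and Tomm20.

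**Figure D2:**
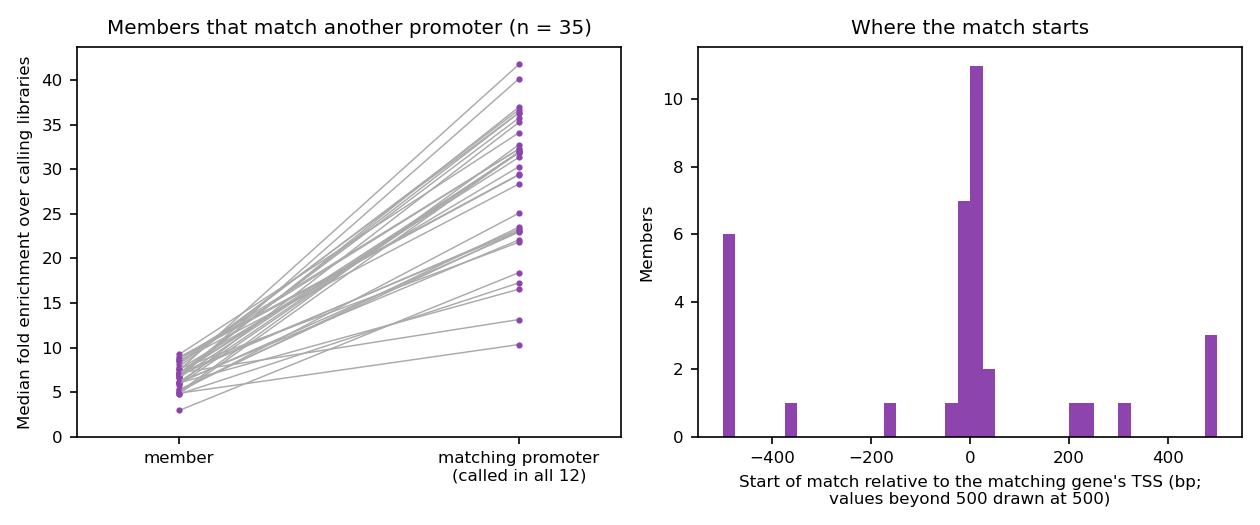
Left, median fold enrichment (vertical axis) of the 35 members that match a coding promoter called in all 12 libraries and of that promoter, joined by lines. Right, number of members by the start of the match relative to the TSS of the matching gene in bp; every line rises from the member to the promoter, and 21 of 35 matches start within 50 bp of a TSS.

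Such copies were called in scramble too. Over the whole genome, 1126 regions had a copy inside a stronger region called in all 12 libraries, and they made up 2.86 to 3.46% of the regions called in scramble libraries and 2.84 to 3.93% in the other 9. Of the 531 among them that were called in at least 6 of the 9 libraries, 432 were called in all 3 scramble libraries and 40 (7.53%) in none, against 2.19% in none over all 15747 regions called in at least 6 of 9. The call rate of these copies thus overlapped between scramble and the other libraries, while the share without a scramble call was higher than over all regions.

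The members were rich in G and C. Their median GC content was 57.3% (quartiles 53.3 and 62.7), against 47.2% for all regions, 49.9% for regions called in all 12 libraries and 39.4% for regions called in at least 2 scramble libraries alone. It was 61.4% at promoter members, 55.8% inside genes, 53.8% outside genes and 59.0% in members with a copy, each above the 49.8, 44.4, 45.7 and 48.4% of all regions of the same kind. Among regions called in at least 6 of the 9 libraries, the share that no scramble library called was 0.0415% (1 of 2407) under 45% GC, 0.615% at 45 to 50%, 1.65% at 50 to 55%, 5.14% at 55 to 60%, 11.2% at 60 to 65% and 37.6% (64 of 170) from 65% on. With only regions of fold enrichment under 10, these shares ran from 0.102% to 49.2% over the same classes, with a rise at each step. The lists themselves differed in the same direction, as given above. GC content was that of whole regions, and the parts of list composition and region width in this result were not tested.

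The CG dinucleotide followed the kind of member. The 300 bp windows held a median of 9 CG over all members, with 20.5 at promoter members, 5.5 inside genes, 5 outside genes and 21 at copies. The median was 16 at regions called in all 12 libraries, 4 over all regions and 2 at regions of scramble alone. The ratio of observed to expected CG passed 0.6, a limit often used for CpG islands, in 56.3% of promoter members and 22.9% of all promoter regions. It was taken over whole regions, whose median width was 906 bp for promoter members and 2698 bp for all promoter regions. The part of width in this contrast was not tested. The ratio passed 0.6 in 1.61% of members inside genes beside 1.75% of all such regions, and in 9.62% of members outside genes beside 5.22%. The median ratio was 0.252 against 0.195 inside genes and 0.264 against 0.229 outside, so members away from promoters were above regions of their kind in CG, though few were as rich in it as promoters. Repeats made up a median of 9.07% of a member's bases and 15.8% of all regions.

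**Figure D3:**
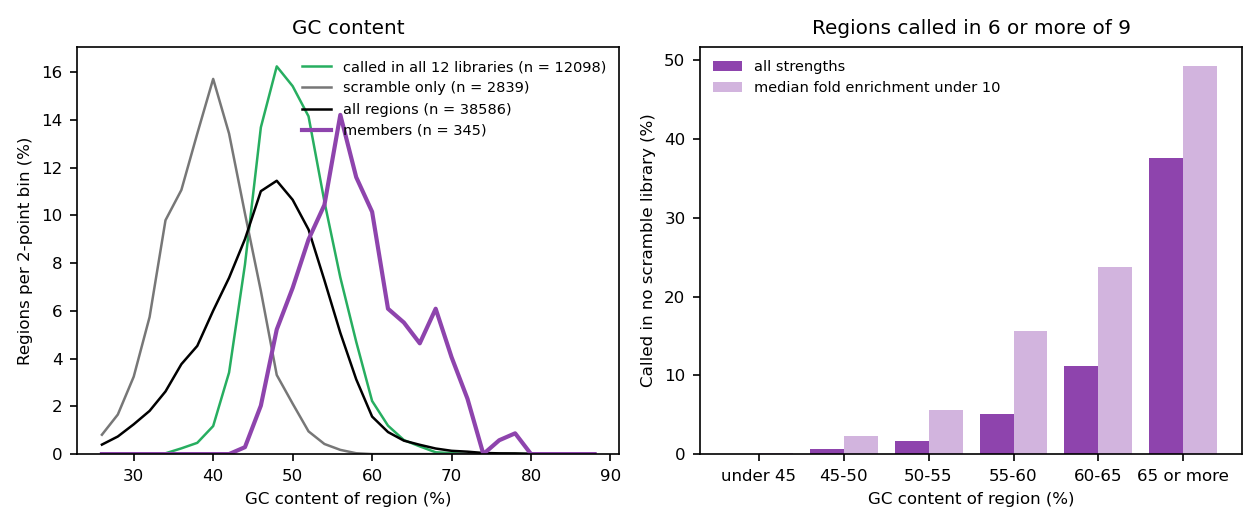
Left, distribution of GC content (horizontal axis, percent) over members, all regions, regions called in all 12 libraries and regions of scramble alone, in bins of 2 percentage points. Right, share of regions called in at least 6 of 9 libraries that no scramble library called, by GC class; it rises from 0.0415% under 45% GC to 37.6% from 65% on, and more steeply where fold enrichment was under 10.

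Short motifs were counted in the 300 bp windows on both strands. GGGCGG, the core of SP and KLF sites, occurred in 27.8% of member windows (interval 23.4 to 32.8) and 16.2% of all windows, with 40.5% at promoter members against 33.7% at all promoter regions, and 15.7% at members away from promoters against 5.62%. CCGGAAG, an ETS core, occurred in 4.64% of member windows and 2.67% of all, and TGACGTCA, the cAMP response element, in 1.45% (5 of 345) and 0.189%. TGANTCA of AP-1 was found in 6.96 and 8.03%, CCAAT of NFY in 24.1 and 26.97%, CACGTG in 4.93 and 4.40%, GGAATG of TEAD in 12.8 and 14.1%, and the NRF1 motif in 0.290 and 0.0441%. The NF-kB motif searched was in 0 of 345 member windows and 0.371% of all. Like the members themselves, GGGCGG is rich in GC, and the part of GC content in its share was not tested.

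Across libraries, the number of members called moved with the calling depth. CPT1a knockout replicates 1 to 3 called 320, 332 and 73 of the 345, those with acetate 269, 168 and 317, and those of KAT2a knockout 312, 331 and 266. The lowest counts, 73 and 168, belonged to the lists with the lowest depth, 0.554 and 0.660. As shares of the members these were 21.2 and 48.7%, against 77.1 to 96.2% in the other lists outside scramble. Over all regions called in at least 6 of 9, the same lists were also lowest, at 80.04 and 90.8%. The other lists outside scramble called 96.7 to 99.6% of those. Low counts in the shallowest lists were thus not particular to the members, though the gap was wider there. Within a list the members had a median fold enrichment of 5.06 to 5.98, with no such order. Of the members, 155 were called in 6 libraries, 90 in 7, 72 in 8 and 28 in all 9, and 142 of the 155 lacked CPT1a knockout replicate 3.

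A total of 237 members (68.7%) were called in all 3 KAT2a knockout libraries, 134 (38.8%) in all 3 acetate libraries and 71 (20.6%) in all 3 CPT1a knockout libraries. Over all regions called in at least 6 of 9 these shares were 95.8, 89.2 and 79.96%, in the same order, and the 2 shallowest lists belong to the latter groups. At least 1 library of each group called 339 of the 345 members, which the rule nearly fixes, since a region missed by a whole group had to be called in all 6 other libraries. For the same reason the calls say little on how the 3 groups differ from each other.

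**Figure D4:**
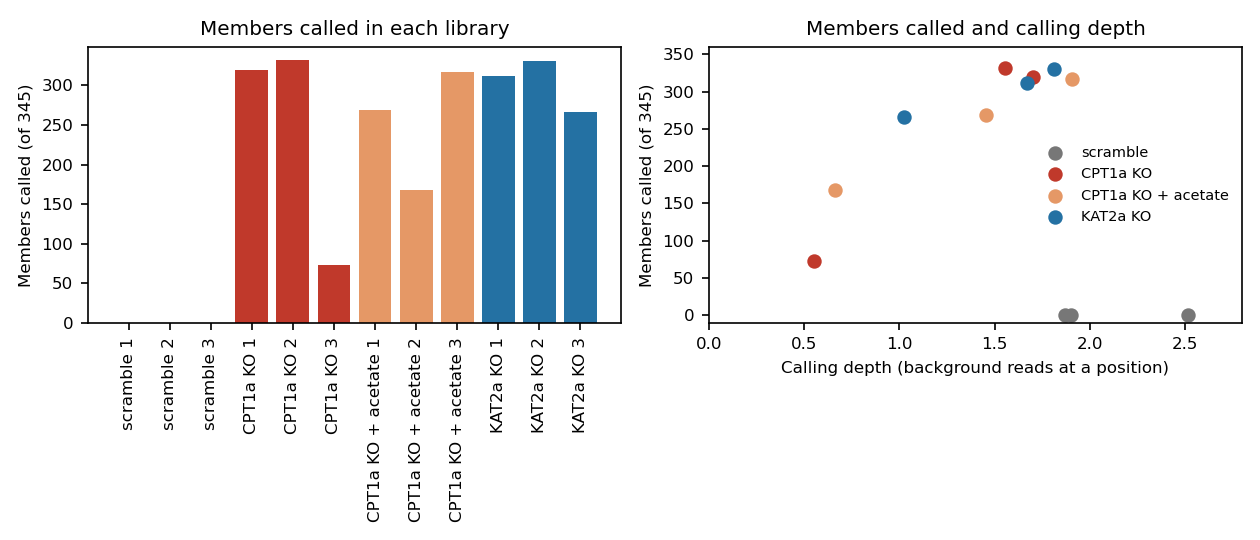
Left, number of members called in each of the 12 libraries; the 3 scramble libraries are at 0 by the rule. Right, the same numbers against the calling depth of the list, where the shallowest lists, 0.554 and 0.660, called 73 and 168 members and the other lists outside scramble at least 266. The shallowest lists also called the smallest shares of all regions called in at least 6 of 9, 80.04 and 90.8%.

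The shallowest scramble list had a calling depth of 1.87, which 1 of the 9 other lists exceeded. The 5th percentile of fold enrichment was 3.32 to 3.61 in the scramble lists and 3.52 to 4.85 in the others, and the part of calling depth in the missing calls was not tested. The distance to the nearest scramble peak was under 500 bp for 53 members, beyond 10 kb for 194 (56.2%) and 15024 bp in the median, so most members did not adjoin a scramble peak.

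The rule was then applied with each other group in the place of scramble. It found 161 regions absent in CPT1a knockout, 284 absent in the acetate group and 50 absent in KAT2a knockout, against 345 for scramble. Regions absent from one of the other groups but called in all 9 remaining libraries numbered 5, 1 and 2, against 28. Their median GC content was 45.5, 45.2 and 46.5%, against 57.3% for the members, and 16.1, 17.6 and 20.0% of them lay at promoters against 39.7%. With all lists scaled to an equal calling depth of 0.55, the counts were 43, 75 and 15 for the other groups and 960 for scramble, with a median GC of 54.8% for the latter. Of the 345 members, 49 overlapped the 960, so the scaled lists selected largely other regions. As deposited, the number for scramble was near that of the acetate group and within the range that single libraries moved it, while the GC content was higher for scramble at both depths. These counts reuse the calls of the rule and are a description.

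**Figure D5:**
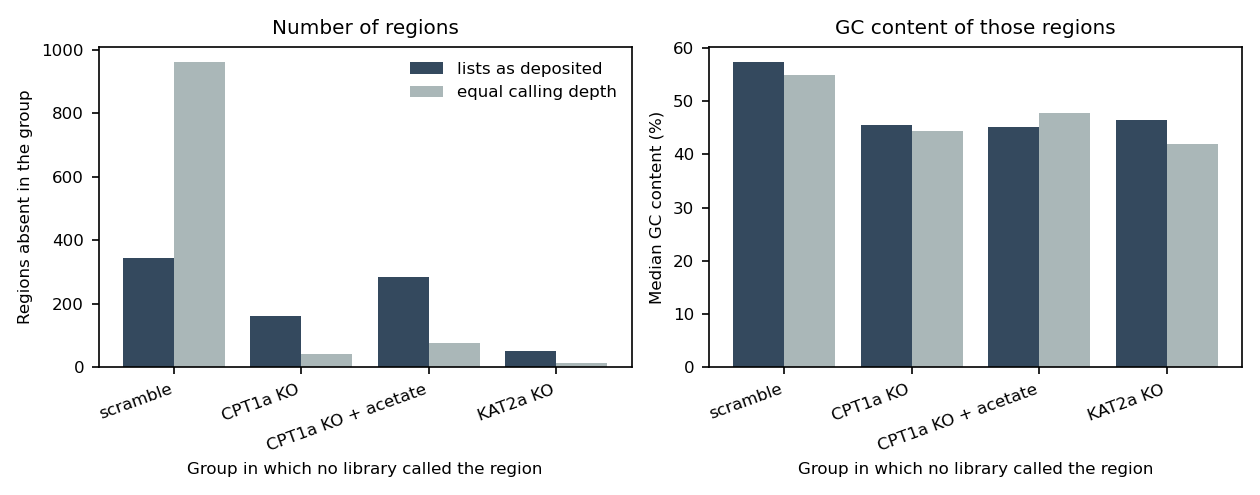
Number (left) and median GC content in percent (right) of the regions that no library of a group called and at least 6 of the 9 libraries of the other groups did, with the lists as deposited and at equal calling depth. Scramble has 345 and 960 regions, the other groups at most 284 and 75, and the GC content of scramble's is the highest at both depths.

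Because the rule used the calls in scramble, each scramble library was also left out of it in turn. Of 734 regions absent in replicates 2 and 3, replicate 1 called 53.0% (interval 49.4 to 56.6), of 443 absent in replicates 1 and 3, replicate 2 called 22.1% (18.5 to 26.2), and of 377 absent in replicates 1 and 2, replicate 3 called 8.49% (6.08 to 11.7). The same libraries called 96.8, 92.9 and 92.0% of all regions called in at least 6 of 9. The latter shares include strong regions, of which none was a member, so both sets are not matched for strength and the gap between them is no test. Replicate 1, the deepest, called most of the regions that the other 2 lacked, and replicate 3 the smallest share. The intervals cover counting error alone.

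The number of members depends on single libraries. With the peaks of scramble replicate 1 left out before merging, the rule found 747 regions. With the threshold of 6 kept for 8 libraries, it found 214 without CPT1a knockout replicate 1, 205 without replicate 2, 217 without replicate 3 of the acetate group, and 219 and 207 without KAT2a knockout replicates 1 and 2. The threshold itself also cuts through a continuum. Just inside it, the highest-ranked members called in 6 of 9 lay near Olfr1419 (chr19:11878418-11878765, median 7.46) and near G6pd2 (chr5:60231302-60231641, median 7.07). Just outside, among 212 regions called in 5 of 9 and in no scramble library, the highest lay near Nat8 (chr6:85843765-85844095, median 8.91) and near Dock1 (chr7:134660275-134660560, median 7.83), and all 4 of these have near-identical copies, as does the region near Agtr1b. Among 66 regions called in all 9 and in 1 scramble library, the highest were the promoter of Rapgefl1 (chr11:98836342-98837832), at 10.5 in the 9 libraries and 5.32 in scramble replicate 2, and a region near Agtr1b (chr3:21049352-21049778), at 10.1 and 6.03 in scramble replicate 1.

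The rule treats the 9 libraries alike, so differences among their 3 groups can be tested. For the 12331 regions called in all 9, fold enrichment was converted to a rank percentile within each library, and an exact permutation test over all 280 partitions of the libraries was adjusted by the Benjamini-Hochberg method. Of the 28 members tested, 0 had an adjusted p under 0.05, as of all regions (0%). The lowest adjusted p was 0.414 among members, for Celsr2, and 0.373 among all regions. The smallest p the test allows is 0.00357, and 881 regions would have had to reach it for an adjusted p under 0.05, while 118 did. At an unadjusted p under 0.05 there were 4 of 28 members (14.3%) beside 9.16% of all regions, namely Celsr2, Fhod3, Camk2n1 and the Nfic intron. With the GC trend of each library removed, 0 of 28 members passed this limit, beside 1058 of the 12331 regions. Without 1 library, 1 to 6 members passed it.

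The mean rank percentile of Celsr2 was 5.48 ± 0.763 in CPT1a knockout, 1.88 ± 1.66 after acetate and 7.07 ± 1.77 for KAT2a knockout libraries (SD, 3 per group, exact permutation p = 0.0107, adjusted p = 0.414). That of Camk2n1 was 16.3 ± 6.82, 10.3 ± 3.15 and 3.85 ± 2.33 (exact permutation p = 0.0429, adjusted p = 0.506). Ranks of the groups did not overlap, with CPT1a knockout above KAT2a knockout, at 9 of 28 members beside 8.43% of all regions, and in the opposite direction at 0 beside 7.49%. CPT1a knockout lay above the acetate group without overlap at 8 members beside 8.59%, and below it at 0 beside 5.8%. The acetate group lay above KAT2a knockout at 3 beside 6.3%, and below it at 2 beside 9.08%. These comparisons share libraries. After the GC trend of each library was removed, CPT1a knockout lay above KAT2a knockout at 3 members beside 8.26% of all regions. It lay below KAT2a knockout at 2 beside 6.86%. CPT1a knockout lay above the acetate group at 0 beside 8.04%, and below it at 3 beside 5.91%. These counts are small. The first direction was thus weaker, and the second was no longer seen, once GC content was taken into account.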

How the data were processed

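H3K9ac peak lists of 12 libraries were analysed, 3 per group, and groups and replicate numbers came from the labels. The members and the gene lists were chosen with earlier results of these data known. The deposited lists are per library, with no pooling named. The deposited fold enrichment is a ratio of summit coverage to local background, while the significance columns, a -log10 p and a -log10 q, are those of the authors' peak caller within 1 list. The deposited score was used in no result. Per the study's methods the authors cleaned reads, aligned them to mm10 with BWA and removed duplicates with Picard, whereas the submitters' processing notes name Bowtie2 and MACS2. Which of these made the lists, and the caller's options, are not given in the sources used here. Labels and methods name different H3K9ac antibodies. The Drosophila chromatin added as a reference was not used, so a change in total H3K9ac cannot be seen. The 12 input libraries were not analysed here, and chromosome Y was set aside. One checked marker gene is not reported here.

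Regions, calls and tests were computed in Python 3.11.15 with numpy 2.4.6, pandas 2.3.3 and scipy 1.17.1. Depth is not stated. A calling depth was recovered by inverting the caller's formulas for peaks with a -log10 p below 60, checked on simulated data. For lists at equal depth, coverage was scaled to 0.55 and peaks with a -log10 p of at least 5 were kept. Genes came from GENCODE M21 and sequence from GRCm38, and GC content was that of the whole region. Copies were searched with BLAST 2.17.0 for unmasked bases of the summit windows. Members were ordered by their median rank percentile of fold enrichment over the calling libraries. Named were, of those called in all 9, the 10 highest at promoters and up to 5 each in genes and outside genes, all in the NF-kB and fatty acid lists, up to 5 of each other list, and those at the limits of the rule. Shares carry 95% Wilson intervals, which cover counting error only. The alternatives were other merging, overlap, threshold, depth, list length and windows, and each library left out.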

Additional observations from a re-analysis of the deposited data

Results flagged for a closer look

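Chromosome Y was not part of the comparisons. Its peaks, 11 to 45 per library, formed 71 merged regions, and 4 of those met the rule, with calls in at least 6 of the 9 libraries and none in scramble. They were noted only because they lie in data outside the main measurement. Their absence in scramble is fixed by the rule and is no result. No further test was made of these regions.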

How the results depend on the processing

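The number of members was 345. It was 960 at equal calling depth and 631 with lists of equal length, 557, 190, 100 and 28 when 5, 7, 8 or 9 of the 9 libraries were required, and 864 with at most 1 of 3 scramble libraries, while leaving out 1 library gave 205 to 747. Of the 345 members, 49 overlapped the 960 regions at equal depth and 63 the 631 with equal lengths. The number stayed within 1.5 times of 345 with peaks within 500 bp merged, with peaks covering 0.5 of a region and with a -log10 q of at least 4, and 285, 112 and 284 of the 345 members overlapped those regions. Both shallow libraries left out, an alternative chosen after seeing the data, gave 284 and 505. The share at promoters, 39.7%, was 49.6% with peaks covering 0.5 of a region, 45.7% at equal depth and 47.7% with equal lengths, and 32.8 to 47.7% without 1 library. Median GC, 57.3%, was 54.8% and 56.1% under the same last 2 settings and 54.9 to 58.9% without 1 library. These values were above the 47.2% of all regions in the main setting, and the GC content of all regions was not computed under the other settings. The share called by scramble replicate 1 when left out was 23.9% at equal depth, and those of replicates 2 and 3 were 13.5 and 4.60% with peaks covering 0.5 of a region. Windows of 500 bp raised the motif shares, except those of NRF1 and NF-kB.

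Members whose rank differed among the 3 groups were 0 under every setting. Of ranks that did not overlap, CPT1a knockout and KAT2a knockout had 9, and 5 without the GC trend. CPT1a knockout with and without acetate had 8, and 3, in the opposite direction, without the GC trend. By -log10 p this pair had 4, all with CPT1a knockout higher, beside 9.48% of all regions. Shares of all regions in the main setting and without the GC trend are given above. Acetate and KAT2a knockout had 5, and 17 of 86, in the opposite direction, over regions called in all 6 libraries of the pair, chosen after seeing the data. The shares of all regions there were 6.48% with acetate higher and 9.03% with KAT2a knockout higher. Without 1 library the ranges were 9 to 12, 8 to 13 and 5 to 8, the last turning direction at 7 without KAT2a knockout replicate 1. Equal replicate numbers did not pair libraries, with correlations of deviations of -0.0543 to 0.0783, and the replicate block gave 14, 11 and 10 non-overlapping members. With the block the shares of all regions in the 2 directions were 16.8 and 14.7%, 13.1 and 17.6%, and 13.5 and 17.2%. They were higher than in the main setting too, so the larger counts are no result about the members. The cause of these shifts was not tested. The lists of lowest depth called 73 and 168 of the 345 members. They called 80.04 and 90.8% of all regions called in at least 6 of 9, also the lowest shares.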
